A study of Saccharomyces cerevisiae with 45 samples.

Results

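The genes of trehalose and glycogen metabolism were followed through the germination of yeast spores, with and without rapamycin. The set was chosen by function and holds 10 of the 6723 genes counted. Its members are TPS1 (YBR126C), TPS2 (YDR074W), TSL1 (YML100W), TPS3 (YMR261C), NTH1 (YDR001C), NTH2 (YBR001C), ATH1 (YPR026W), GSY1 (YFR015C), GSY2 (YLR258W) and GPH1 (YPR160W), and all 10 passed the filter on low counts in each of the 26 comparisons below. Each is 1 uninterrupted coding sequence in the RefSeq annotation of assembly R64, on chromosome II (TPS1, NTH2), IV (TPS2, NTH1), VI (GSY1), XII (GSY2), XIII (TSL1, TPS3) or XVI (ATH1, GPH1). The groups were purified spores of strain SK1, and the same kind of spores placed in rich medium (YPD) at 30 °C with shaking for 0, 10 or 30 min or for 60, 120, 240 or 360 min, either with 2 μM rapamycin or with an equal volume of its solvent DMSO. Rapamycin inhibits TORC1, the growth-promoting kinase complex, so the DMSO cultures show germination and the rapamycin cultures show which changes were altered when the drug was present. Each of the 15 conditions had 3 RNA-Seq libraries, lettered A, B and C, and values below are given in that order.

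Trehalose is a disaccharide and glycogen a branched glucose polymer. Yeast stores both when growth stops, and spores carry a large trehalose reserve that is broken down when germination begins. Tps1 makes trehalose phosphate from UDP-glucose and glucose phosphate, Tps2 removes the phosphate, and Tsl1 and Tps3 are the paralogous regulatory subunits of this complex. The neutral trehalase Nth1 and its paralog Nth2 hydrolyse trehalose in the cytosol, while the acid trehalase Ath1 acts on trehalose outside the cytosol. Gsy1 and Gsy2 are the glycogen synthases and Gph1 is the phosphorylase that releases glucose phosphate from glycogen. In growing yeast, several of these genes are known targets of the stress factors Msn2 and Msn4, which bind the stress response element AGGGG and are held in check by glucose signalling.

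The upstream sequence of 3 trehalose synthesis genes is shown because the patterns of TSL1 and TPS2 were closely correlated in the data below. The pattern of TPS3 was close to neither. Each stretch runs from 250 to 100 bases before the start codon in the RefSeq sequence of assembly R64, which is strain S288C and not SK1. Capitals mark the stress response element, AGGGG or its reverse complement CCCCT.
TSL1, chrXIII:70374-70524, plus strand: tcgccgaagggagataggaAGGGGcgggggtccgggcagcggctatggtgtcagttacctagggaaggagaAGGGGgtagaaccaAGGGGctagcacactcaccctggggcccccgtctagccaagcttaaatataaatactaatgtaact
TPS3, chrXIII:793469-793619, minus strand: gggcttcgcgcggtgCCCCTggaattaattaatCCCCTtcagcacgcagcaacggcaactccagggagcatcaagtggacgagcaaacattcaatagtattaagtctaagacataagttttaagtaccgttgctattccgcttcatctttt
TPS2, chrIV:593643-593793, plus strand: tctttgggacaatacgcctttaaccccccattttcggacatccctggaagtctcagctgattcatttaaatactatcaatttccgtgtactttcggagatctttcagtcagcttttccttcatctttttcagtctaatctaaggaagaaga
TSL1 had 3 matches and TPS3 had 2 in these stretches, and TPS2 had 0. In windows from 250 bases before to 50 bases after the start codon, 5 of the 10 members had a match (TPS1, TSL1, TPS3, NTH1 and GSY2), against 21.6% of 6001 genes. More than 1 match was found in 3 members (TPS1, TSL1 and TPS3), against 2.93% of genes. GATAAG, the core of the sites for GATA factors, with its reverse complement CTTATC, was found in 1 member, TPS1, against 14.7% of genes. A match is a string of letters and was not tested as a binding site.

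Depth was 7736397 to 14522407 counted reads per library. The late-sporulation transcripts SPS100, DIT1, DIT2, SPS4 and SPO20 summed to between 10300 and 13850 CPM (read counts scaled to library size by TMM) in the spores, almost all of it from SPS100, and DIT2 averaged only 1.63 CPM. The growth-related transcripts RPL3, RPL25, RPS3, CLN2 and EGT2 summed to between 1086 and 1148 CPM in the spores and between 12860 and 14170 CPM after 120 min with DMSO. Almost all of it came from the 3 ribosomal protein transcripts RPL3, RPL25 and RPS3. CLN2 averaged 0.446 CPM in spores and 1.06 CPM at 120 min, and EGT2 19.2 and 18.2 CPM. Transcripts of haploid mating types (MFA1, MFA2, STE2, STE3 and MF(ALPHA)1) summed to at most 103.5 CPM in the spores and to at least 1588 CPM after 360 min with DMSO. One library stood apart from its replicates across genes, rapamycin 360 min library A, with a chi-square per degree of freedom of 185 against B and 167 against C, while B and C differed by 5.39. The next largest value between replicates was 71.9, between libraries B and C of rapamycin 60 min. The values are relative to the other transcripts of a library, with no external standard, and in these bulk samples a smaller share of cells of one kind and less RNA per cell cannot be told apart. The labels do not say whether the libraries of a condition came from separate cultures, so p-values measure the spread between these libraries.

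In the spores the transcript with the highest level per length was NTH1, with 754 CPM per kilobase of coding sequence ± 4.26 (SD, n = 3). TPS2 had 677 ± 84.8 CPM per kilobase and its libraries overlapped with those of NTH1. TPS1 followed with 526 ± 58.2, TSL1 with 183 ± 34.7 and ATH1 with 134 ± 7.92 CPM per kilobase. The other 5 members were at most at 56.4 CPM per kilobase, the mean of NTH2. GPH1, GSY2 and TPS3 had the lowest means, 24.4, 23.2 and 23.1 CPM per kilobase. The 5 highest members thus belong to trehalose metabolism, and the 3 glycogen genes were at most at 46.6 CPM per kilobase, the mean of GSY1. Members with paralogs could be told apart, since none of their windows of read length occurs elsewhere in the reference genome.

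**Figure D1:**
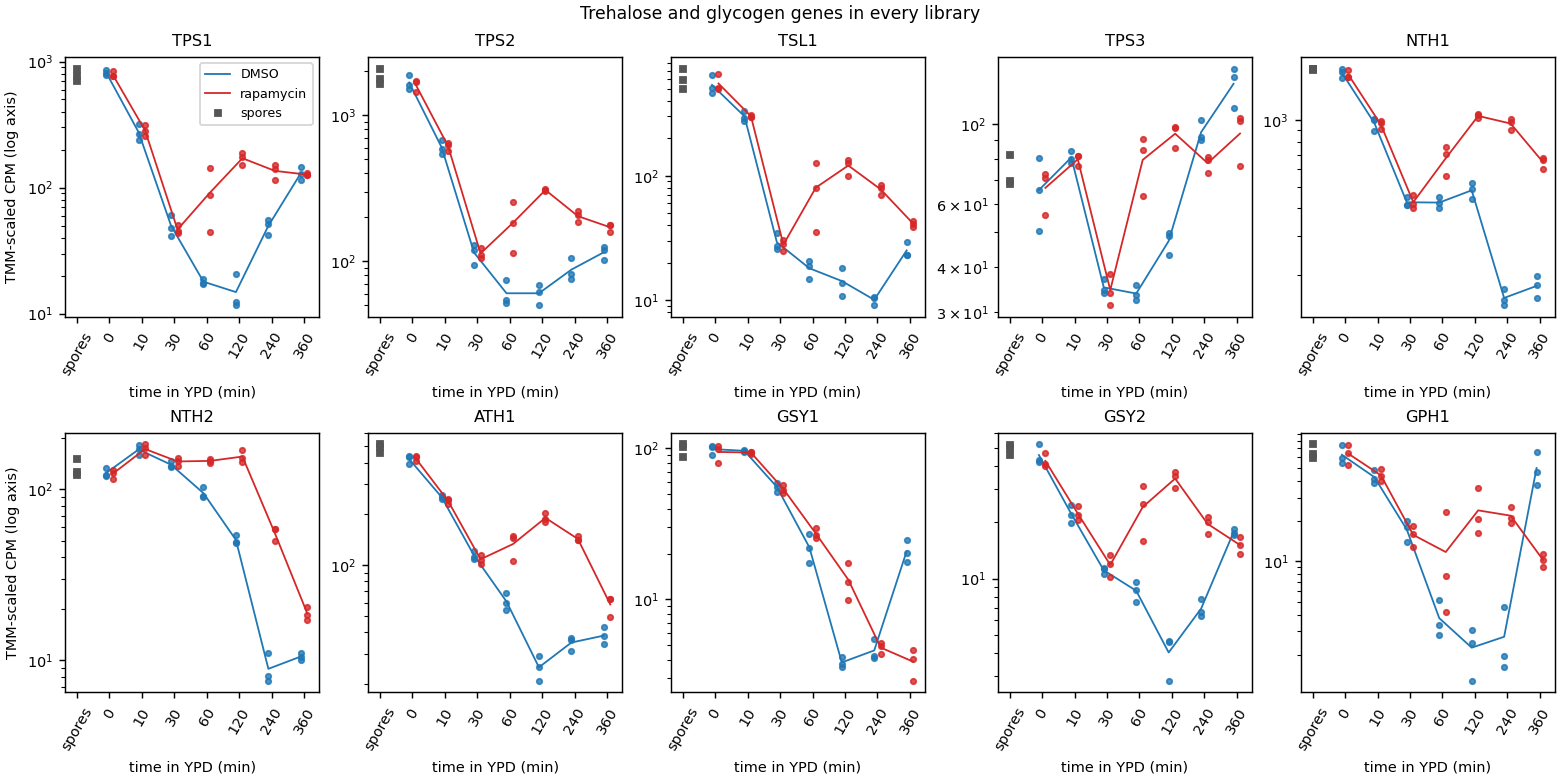
TMM-scaled CPM of the 10 genes (log axis, a different range in each panel) in every library, against time in YPD in minutes (steps drawn at equal spacing). Points are libraries, lines join the means of 3 libraries, blue is DMSO, red is rapamycin and grey squares are purified spores. TPS1 went from 702 to 874 CPM in spores to 11.7 to 20.5 CPM at 120 min with DMSO, and to 151 to 189 CPM at that time with rapamycin.

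Comparing DMSO cultures with spores asks which of these transcripts were lost during germination. At 0 min, 0 of 10 members were called (0% of all genes tested), with the adjusted p under 0.05 and the change of at least 2-fold required throughout, and edgeR's quasi-likelihood test gave 948 of 5742 genes an unadjusted p under 0.05. The members called lower numbered 3 at 10 min (7.37% of all genes were called lower) and 8 after 30 min (20% of genes). They numbered 9 after 60, 120 and 240 min, beside 26.8%, 30.8% and 29.9% of genes, and 8 after 360 min, beside 28.6%. No member was called higher at any of these times. The median log2 change of the members was -2.75 at 60 min and -4.46 at 120 min, while the median of all genes was -0.01 and -0.03. These comparisons share the 3 spore libraries.

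The transcripts of trehalose synthesis other than TPS3 had the largest falls at 60 min. TPS1 was at 702, 773 and 874 CPM in the spores, at 241, 266 and 320 CPM after 10 min, at 41.6, 47.4 and 60.9 CPM after 30 min and at 17.5, 17.3 and 19.0 CPM after 60 min. Each of these groups lay below the one before it with no overlap, and at 60 min TPS1 was 43.2-fold lower than in spores (log2 -5.43 ± 0.13 SE, adjusted p = 5.8e-12). TPS2, at 1770, 1623 and 2071 CPM in the spores, was at 54.5, 52.1 and 74.8 CPM after 60 min, 29.8-fold lower (log2 -4.90 ± 0.17). TSL1 went from 592, 493 and 722 CPM to 19.0, 14.7 and 20.5 CPM, 32.9-fold lower (log2 -5.04 ± 0.17). The 3 genes differed in when they fell: between 0 and 10 min TPS1 and TPS2 were the 2 members called (5.91% of all genes fell), with log2 changes of -1.50 ± 0.11 and -1.40 ± 0.12, while TSL1 passed the adjusted p but not the 2-fold minimum (-0.76 ± 0.12). From 10 to 30 min 8 members fell (8.92% of all genes), and TSL1 had the largest of these changes, -3.37 ± 0.12.

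TPS3 was also called lower than in spores at 60 min with DMSO, but by 2.14-fold, less than its partners. It was at 69.2, 68.2 and 81.9 CPM in the spores, at 32.4, 33.4 and 35.6 CPM after 60 min with DMSO and at 111, 135 and 142 CPM after 360 min. The libraries at 360 min lay above those of the spores, but the change of 0.80 ± 0.11 on the log2 scale (adjusted p = 1.0e-05) is under 2-fold. Over the 15 conditions its mean level spanned 3.82-fold, against 55.2-fold for TPS1, 30.1-fold for TPS2 and 59.8-fold for TSL1. The call of TPS3 as lower at 30 min (log2 -1.05 ± 0.10) was close to the 2-fold minimum and was lost when library sizes were not scaled (-0.75) or when spore library C was left out (-0.95).

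Among the trehalases, NTH1 fell in stages. It was at 1710, 1691 and 1705 CPM in the spores, at 411, 450 and 415 CPM after 30 min, at 440, 486 and 519 CPM after 120 min and at 172, 146 and 153 CPM after 240 min. The level at 30 min was 3.98-fold below that of spores (log2 -1.99 ± 0.10), the libraries at 30 and 120 min overlapped, and a second fall of -1.53 ± 0.09 was called between 120 and 240 min. NTH2 was at 150, 126 and 121 CPM in spores and at 172, 182 and 158 CPM after 10 min, above each spore library (log2 0.43 ± 0.09, adjusted p = 0.0013), a change that is under 2-fold. It then fell to 8.06, 7.61 and 11.1 CPM at 240 min, with the largest step, -2.43 ± 0.14, between 120 and 240 min. ATH1 fell over a longer time than TPS1, from 513, 456 and 495 CPM in spores to 121, 111 and 109 CPM at 30 min and to 29.1, 20.8 and 24.9 CPM at 120 min (log2 -4.26 ± 0.12 against spores).

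The 2 glycogen synthase genes fell at different times. GSY2 was at 49.8, 45.9 and 51.6 CPM in spores and at 19.7, 21.9 and 24.8 CPM after 10 min, a fall of 1.09 ± 0.11 on the log2 scale that was under 2-fold without scaling of library sizes (-0.73). GSY1 was at 103, 106 and 88.0 CPM in spores and at 96.5, 98.0 and 95.0 CPM after 10 min, within the range of the spores (log2 0.02 ± 0.09, adjusted p = 0.82). It fell later, to 55.9, 51.5 and 59.4 CPM at 30 min, 21.8, 27.2 and 17.5 CPM at 60 min and 3.75, 3.57 and 4.17 CPM at 120 min, where it was 25.2-fold lower than in spores (log2 -4.66 ± 0.14). GPH1 fell from 59.7, 63.4 and 74.9 CPM to 2.80, 5.12 and 3.36 CPM at 60 min (log2 -4.12 ± 0.19) and was at 2.43, 1.28 and 3.07 CPM at 120 min. Between 30 and 60 min the members called were TPS1, GSY1 and GPH1 (14.2% of all genes fell). Without scaling of library sizes 7 members were called, beside 1527 of 5778 genes called lower. Between 60 and 120 min the members called were ATH1, GSY1 and GSY2 (11.8% of all genes fell). The call of GSY2 there was lost without DMSO 120 min library B (-0.91).

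Late in the DMSO course several of the same genes rose again. From 120 to 240 min TPS1 and TPS3 rose while NTH1 and NTH2 fell (23% of all genes were called). TPS2 passed the adjusted p in this interval with a change under 2-fold (0.62 ± 0.14), and TSL1 did not pass it (-0.43 ± 0.20, adjusted p = 0.067). TPS1 went from 20.5, 11.7 and 12.3 CPM to 51.3, 42.2 and 55.8 CPM (log2 1.82 ± 0.19). From 240 to 360 min TPS1, TSL1, GSY1, GSY2 and GPH1 rose (5.27% of all genes rose). GPH1 showed the largest of these rises, from 1.63, 1.97 and 4.58 CPM to 66.3, 46.4 and 37.0 CPM, which is 19.5-fold (log2 4.29 ± 0.32, adjusted p = 2.3e-06). At 360 min its libraries overlapped with those of the spores (log2 -0.42 ± 0.17, adjusted p = 0.03). GSY1 rose from 4.09, 4.21 and 5.50 CPM to 24.8, 20.2 and 17.7 CPM (log2 2.24 ± 0.19) and GSY2 from 7.82, 6.63 and 6.28 CPM to 18.5, 17.0 and 17.6 CPM (1.40 ± 0.15). The trehalase genes NTH1 (0.22 ± 0.10), NTH2 (0.29 ± 0.18) and ATH1 (0.18 ± 0.12) did not pass the adjusted p in this step. Of the growth-related markers, CLN2 averaged 39.3 CPM at 240 min and 268 CPM at 360 min and EGT2 17.8 and 620 CPM, while the 3 ribosomal protein transcripts had lower averages at 360 min (RPL3 6760 and then 4630 CPM), so that the summed level went from between 12590 and 13450 CPM to between 9299 and 9804 CPM. Their part in the late rise was not tested.

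Rapamycin was compared with DMSO at each time to see which of these changes depended on the presence of the drug. At 0 and 10 min 0 of 10 members were called (0% of all genes at either time), and at 30 min 0 of 10 (0.0172% of genes). At an unadjusted p under 0.05, edgeR gave 22 of 5757, 100 of 5863 and 145 of 5823 genes at these times. Each share is under the 0.05 that no difference would give. Same-lettered libraries deviated together in these comparisons, which the test did not use. With the letter as a block 0 members were called as well. The log2 changes of the 10 members lay between -0.14 and 0.09 in these 3 comparisons. TPS1, for example, was at 43.4, 45.6 and 50.5 CPM after 30 min with the drug, within the range of 41.6 to 60.9 CPM with DMSO.

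From 60 min the cultures separated. At 60 min 7 members were higher with rapamycin (10.4% of all genes were called higher), after 120 min 9 members (21.3%) and after 240 min 8 members (14.1%), with 0 members called lower at these times. The median log2 change of the members was 1.36, 2.62 and 1.79, and that of all genes 0.04, 0.03 and 0.01. At 360 min 1 member was higher and 2 were lower (15.7% of all genes were called). With library sizes left unscaled, the median of all genes moved to higher values by 0.32, 0.50, 0.23 and 0.07 at 60, 120, 240 and 360 min. The members called then numbered 7, 10, 8 and 3. Of all genes, 1006 of 5683, 1900 of 5667 and 1034 of 5648 were called higher without scaling at 60, 120 and 240 min. At 360 min 648 of 5644 genes were called higher and 262 lower. The growth-related markers summed to between 2767 and 3656 CPM with rapamycin and between 5642 and 7882 CPM with DMSO at 60 min. At 120 min they summed to between 3309 and 3695 CPM against 12860 and 14170 CPM. Almost all of these sums came from the 3 ribosomal protein transcripts. EGT2 averaged higher with rapamycin at 60 min (15 against 9.42 CPM) and 120 min (20.1 against 18.2 CPM). CLN2 averaged 0.523 against 0.251 CPM at 60 min and 0.398 against 1.06 CPM at 120 min. The summed spore markers overlapped between the cultures at 60 min, with 798 to 1323 CPM against 930 to 1361 CPM. Their sum was higher with rapamycin at 120 min, with 358 to 800 CPM against 131 to 209 CPM. Most of it was SPS100, on average 467 against 139 CPM. SPS4 was lower with rapamycin at 120 min (18.9 against 26.2 CPM), and the other spore markers were higher on average. The part of these differences in the result was not tested.

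At 60 min the rapamycin libraries stood apart from each other. Library B was the lowest and library C the highest in all 10 members, while their depths were 11890473 and 11461618 reads. TPS1 was at 87.5, 44.1 and 142 CPM with rapamycin and at 17.5, 17.3 and 19.0 CPM with DMSO. The groups did not overlap, and TPS1 was higher by 2.35 ± 0.37 on the log2 scale (adjusted p = 0.00098), or by 1.88 without library C. TSL1 was at 79.7, 35.0 and 126 CPM against 19.0, 14.7 and 20.5 CPM (2.15 ± 0.41, or 1.67 without library C). TPS3 was at 84.7, 62.9 and 90.6 CPM against 32.4, 33.4 and 35.6 CPM (1.23 ± 0.14). TPS2 (1.60 ± 0.27), ATH1 (1.13 ± 0.15) and GSY2 (1.49 ± 0.25) were also higher. GPH1 was called, but at 7.74, 4.19 and 23.3 CPM with rapamycin against 2.80, 5.12 and 3.36 CPM with DMSO its groups overlapped. Its change of 1.65 ± 0.59 (adjusted p = 0.04) fell to 0.67 without rapamycin library C (adjusted p = 0.124), and the call was also lost when any 1 of the 3 DMSO libraries was left out. NTH1 (0.67 ± 0.14) and NTH2 (0.63 ± 0.09) passed the adjusted p with changes under 2-fold, and GSY1 did not pass it (0.31 ± 0.17, adjusted p = 0.15).

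An interaction term, fitted over the 12 libraries of both times, compared the effect of rapamycin at 60 min with that at 30 min. It was called, and above 0, for 7 members (9.71% of all genes), with values from 1.18 ± 0.18 for ATH1 to 2.44 ± 0.43 for TPS1. The call of GPH1 (1.78 ± 0.66, adjusted p = 0.038) was lost in 7 of the 12 fits that left out 1 library, among them the fit without rapamycin 60 min library C (0.79, adjusted p = 0.108).

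**Figure D2:**
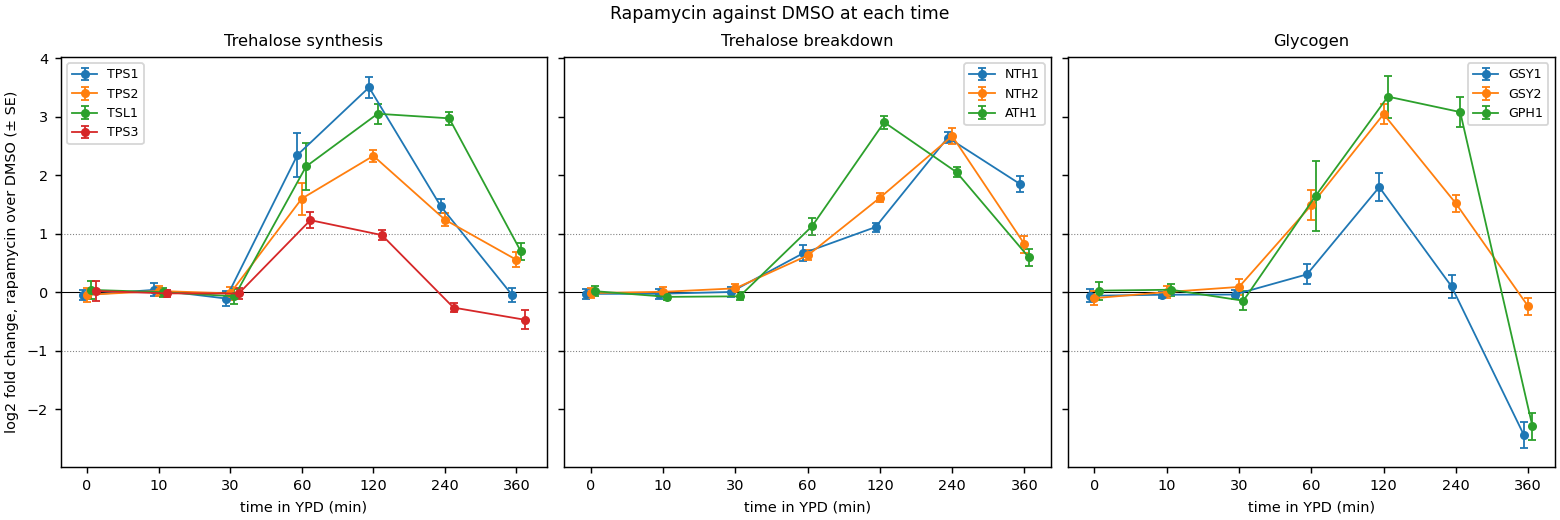
Log2 fold change of rapamycin over DMSO (y axis) against time in YPD in minutes (equal spacing), in panels for trehalose synthesis, trehalose breakdown and glycogen genes. Points are edgeR estimates from 3 libraries against 3, bars are standard errors and dotted lines mark a 2-fold change. All 10 genes lay near 0 until 30 min, and GSY1 and GPH1 lay at -2.44 and -2.29 at 360 min.

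In TPS1, TPS2, TSL1, ATH1, GSY2 and GPH1 the estimated difference was widest at 120 min. TPS1 was at 189, 151 and 174 CPM with rapamycin and 20.5, 11.7 and 12.3 CPM with DMSO, 11.3-fold higher (log2 3.50 ± 0.18, adjusted p = 1.7e-08). GPH1 was at 20.9, 16.2 and 35.1 CPM against 2.43, 1.28 and 3.07 CPM, 10.2-fold higher (3.35 ± 0.36). GSY2 was at 37.1, 30.3 and 35.2 CPM against 4.63, 2.85 and 4.61 CPM, 8.27-fold higher (3.05 ± 0.18). For these 3 genes every rapamycin library lay above every DMSO library. TSL1 (3.05 ± 0.17) and ATH1 (2.91 ± 0.11) were higher by a similar amount. TPS2 (2.33 ± 0.10), GSY1 (1.80 ± 0.24), NTH2 (1.62 ± 0.08) and NTH1 (1.12 ± 0.08) were higher by less. TPS3, at 0.98 ± 0.09, missed the 2-fold minimum and passed it in 3 of the alternatives, 1.48 without scaling of library sizes being the largest value.

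The neutral trehalase genes reached their widest difference later, at 240 min. NTH1 was at 982, 1017 and 902 CPM with rapamycin and at 172, 146 and 153 CPM with DMSO, 6.26-fold higher (log2 2.65 ± 0.10), and the second fall of NTH1 seen with DMSO was not called with rapamycin (log2 -0.06 ± 0.07 from 120 to 240 min). NTH2 was at 49.6, 58.3 and 58.2 CPM against 8.06, 7.61 and 11.1 CPM (2.67 ± 0.13). TSL1 was higher by 2.97 ± 0.11 and GPH1 by 3.08 ± 0.26, close to their values at 120 min, and no test compared these times. TPS3, at 79.4, 72.8 and 81.1 CPM against 89.9, 91.8 and 103 CPM, was below the DMSO libraries (-0.26 ± 0.08, adjusted p = 0.011), a change under 2-fold that was -0.03 without scaling. GSY1 was at 4.93, 4.36 and 5.12 CPM against 4.09, 4.21 and 5.50 CPM and did not pass the test (0.10 ± 0.20).

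At 360 min the direction depended on the gene. The 3 calls in this comparison were also made without rapamycin library A, which stood apart from B and C (NTH1 1.90, GPH1 -2.22 and GSY1 -2.26 without it), and the growth-related markers summed to between 2593 and 6683 CPM over the rapamycin libraries. NTH1 remained higher with rapamycin, at 603, 658 and 677 CPM against 198, 179 and 157 CPM (log2 1.85 ± 0.14, adjusted p = 7.8e-05). GPH1 was lower, at 9.13, 10.2 and 11.4 CPM against 66.3, 46.4 and 37.0 CPM, 4.91-fold (log2 -2.29 ± 0.23). GSY1 was lower as well, at 2.90, 4.66 and 4.06 CPM against 24.8, 20.2 and 17.7 CPM, 5.42-fold (-2.44 ± 0.23). In these 3 genes the groups did not overlap, and both lower genes are among those that rose with DMSO between 240 and 360 min. TPS1 was at 125, 130 and 125 CPM against 147, 127 and 116 CPM, overlapping (-0.05 ± 0.12), and GSY2 did not pass the test either (-0.24 ± 0.14, adjusted p = 0.21). TSL1 (0.70 ± 0.14), NTH2 (0.82 ± 0.15), ATH1 (0.60 ± 0.15) and TPS2 (0.55 ± 0.13) passed the adjusted p above 0, and TPS3 below 0 (-0.47 ± 0.16), each with a change under 2-fold. CLN2, a cyclin transcript of the growth list, averaged 268 CPM with DMSO and 26.9 CPM with rapamycin at this time, and its part in these differences was not tested.

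The effects at 60 and 360 min differed by the interaction test in 8 members (23.2% of all genes were called). The difference was largest for GPH1 (-4.01 ± 0.69, or -3.02 without rapamycin 60 min library C), GSY1 (-2.81 ± 0.30) and TPS1 (-2.46 ± 0.42), and it was above 0 for NTH1 (1.12 ± 0.20). The call of TPS2 (-1.11 ± 0.33) was lost without rapamycin 60 min library C (-0.81). For NTH1 it was lost without rapamycin 60 min library B (1.00, just under 2-fold) and without scaling of library sizes (0.92). Without rapamycin 360 min library A, 8 members were called.

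Steps within the rapamycin course were tested from 30 min on. From 30 to 60 min TSL1 (log2 1.49 ± 0.40) and TPS3 (1.17 ± 0.15) rose and GSY1 fell (-1.01 ± 0.10), with 11.7% of all genes called. The call of TSL1 was lost when any 1 of the rapamycin 30 min libraries was left out (adjusted p from 0.0535 to 0.064). GSY1 fell just short of 2-fold in several alternatives, -0.96 without rapamycin 30 min library B being the smallest change. TPS3 alone was called without that library. From 60 to 120 min GSY1 fell (-1.03 ± 0.20; 4.75% of all genes were called). Same-lettered libraries deviated together in that step, and with the letter as a block 3 members were called, TPS1 (1.04, adjusted p = 0.0282) and GPH1 (1.22, adjusted p = 0.0149) as higher beside GSY1. That step called 4 members without rapamycin 60 min library C (TPS1, TPS2, TSL1 and GPH1, all higher) and 0 without rapamycin 120 min library B. From 120 to 240 min NTH2 (-1.44 ± 0.08) and GSY1 (-1.43 ± 0.21) fell (4.37% of all genes), and from 240 to 360 min NTH2 (-1.57 ± 0.12), ATH1 (-1.29 ± 0.12) and GPH1 (-1.11 ± 0.16) fell (4.45%). The last step called 3 members without rapamycin 360 min library A as well. GPH1 was just under 2-fold there without rapamycin 240 min library C (-0.99). So the 5 members that rose in the last interval with DMSO (TPS1, TSL1, GSY1, GSY2 and GPH1) did not rise in it with rapamycin. Neighbouring steps share libraries.

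Ratios of gene pairs within a library do not depend on how libraries were scaled. They are given as reads per kilobase of one gene over the other and were not tested, since 3 libraries against 3 cannot give an exact two-sided permutation p under 0.1. TSL1 was 7.84 times TPS3 in the spores, 0.508 times at 60 min and 0.102 times at 240 min with DMSO, so the prevailing regulatory subunit transcript switched. With rapamycin the ratio was 1.23 at 120 min and 0.424 at 360 min. The libraries of the 2 cultures did not overlap at 120, 240 and 360 min. The coding sequences of this pair are 64.1% identical, those of NTH1 and NTH2 72.0% and those of GSY1 and GSY2 73.2%.

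GSY1 was 2.01 times GSY2 in the spores and 4.99 times at 30 min with DMSO. At 360 min the ratio was 1.17 with DMSO and 0.251 with rapamycin. GSY2 was thus the main glycogen synthase transcript in the treated cultures at 360 min. It also led with DMSO at 240 min, where the ratio was 0.659, beside 0.244 with rapamycin. In the treated cultures GSY1 led until 30 min, and the ratio was 1.17 at 60 min and 0.386 at 120 min. NTH1 exceeded NTH2 in every library, by 13.4 times in spores, 3.17 times at 30 min and 17.4 times at 360 min with DMSO, and 35.7 times at 360 min with rapamycin. TPS1 was 0.695 times NTH1 in spores, 0.0452 times at 120 min and 1.11 times at 360 min with DMSO. With rapamycin it was 0.247 times at 120 min and 0.298 times at 360 min, and the groups did not overlap at either time.

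**Figure D3:**
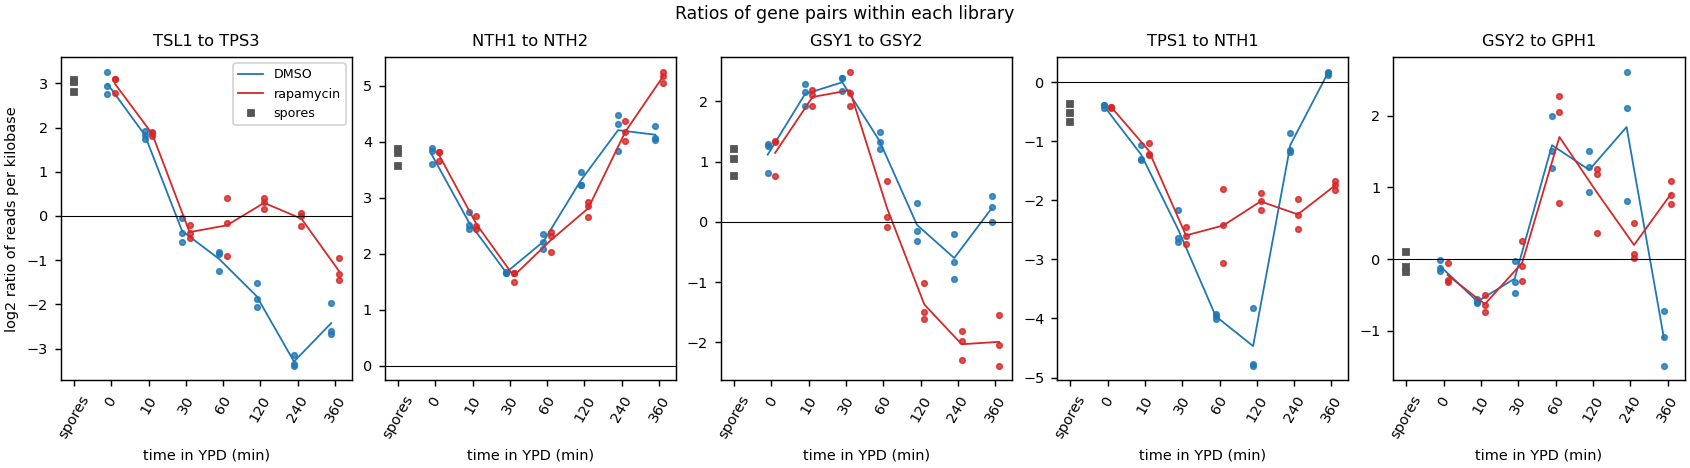
Log2 of the ratio of reads per kilobase of 2 genes within each library (y axis) against time in YPD in minutes (equal spacing). Points are libraries, lines join the means of 3, blue is DMSO, red is rapamycin, grey squares are spores and the black line marks equal levels. TSL1 to TPS3 went from 2.97 in spores to -3.29 at 240 min with DMSO, while with rapamycin it was -0.06 at that time.

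Across the 15 condition means, the pattern of TPS2 correlated with that of TSL1 (Pearson's r = 0.98) and of TPS1 (r = 0.96), and that of TPS3 with none of the other members above 0.47. These are descriptions over log2 levels of 15 conditions that share libraries, time courses and spore samples. Among 5962 other genes, the closest to GPH1 was HXK1, a hexokinase gene (r = 0.95), and the closest to ATH1 was SSE2, a chaperone gene of the HSP70 family (r = 0.98), which was also the second closest to TSL1 (r = 0.98). TPS1 was closest to GGA1 (r = 0.99), TPS2 to IKS1 (r = 0.99), TSL1 to NGL3 (r = 0.98), TPS3 to SEC6 (r = 0.91), NTH1 to MSS4 (r = 0.97), NTH2 to GAL4 (r = 0.97), GSY1 to HOP1 (r = 0.98) and GSY2 to APE1 (r = 0.97).

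Other genes of the pathway were taken from a list of 31, of which 30 were tested and MAL11, a transporter gene, was not. With DMSO at 60 min 21 of them were lower than in spores and 2 were higher, where 26.8% of all genes were called lower, and at 360 min 20 were lower and 2 higher, where 28.6% of all genes were. Their median log2 change was -1.50 and -2.22, beside -0.01 and 0.02 for all genes. GDB1, the glycogen debranching enzyme, had the largest fall at 60 min (log2 -6.48 ± 0.14), beside GLC3, the branching enzyme (-4.08 ± 0.11), and GLK1, the glucokinase (-3.76 ± 0.14). HXK2, the hexokinase gene of cells growing on glucose, was higher (3.56 ± 0.12), as was MSN4 (2.12 ± 0.13). The hexose phosphate genes split late, PGM1, the minor phosphoglucomutase, being higher than in spores at 360 min (3.43 ± 0.13) and PGM2, the major one, lower (-2.84 ± 0.13).

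With rapamycin 12 of the 30 genes were higher than with DMSO at 60 min and 21 at 120 min, where 10.4% and 21.3% of all genes were called higher. The number was 15 after 240 min (14.1% of all genes) and 4 after 360 min. Their median log2 change was 1.75 at 120 min, beside 0.03 for all genes. The count at 60 min was 7 without rapamycin library C, and that at 360 min was 2 without rapamycin library A or DMSO library C and 6 without rapamycin library B. The lower genes numbered 0, 0, 1 and 2 at these times. At 120 min the 5 genes of glycogen assembly and removal were all called, GLC3 at 3.78 ± 0.19 and GDB1 at 2.56 ± 0.24, with GLG1 (1.95 ± 0.12) and GLG2 (1.19 ± 0.11), the primers of glycogen, and SGA1 (1.83 ± 0.15), the glucoamylase of sporulation. UGP1, which makes UDP-glucose for both stores, was higher by 2.37 ± 0.07 and HXK1 by 3.90 ± 0.24. Of 11 regulators of glycogen synthase 7 were higher, among them PIG2 (2.29 ± 0.08) and GAC1 (2.14 ± 0.13), which target the phosphatase Glc7, and the kinase gene PSK1 (2.88 ± 0.17). GLC7 itself was at -0.39 ± 0.07. Of the stress transcription genes MSN4 (2.23 ± 0.10) and RIM15 (1.84 ± 0.08) were higher, while MSN2 (0.56 ± 0.07) and GIS1 (-0.34 ± 0.08) were under 2-fold.

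At 360 min 4 genes of this list were called higher and 2 lower, a share near the 15.7% of all genes called in either direction. SGA1 (1.76 ± 0.32), DCS2 (1.21 ± 0.17), GAC1 (1.03 ± 0.18) and PCL10 (1.01 ± 0.19), a cyclin gene for the kinase Pho85, were higher with rapamycin, and HXK1 (-2.09 ± 0.23) and PGM1 (-1.28 ± 0.21) were lower. HXK1, like GPH1 and GSY1, rose between 240 and 360 min with DMSO (2.29 ± 0.18). In all 6 of the 30 genes rose in that step, where 5.27% of all genes were called higher. The others were UGP1 (1.16 ± 0.09), GLG2 (1.28 ± 0.14), GIP2 (1.08 ± 0.19), PSK1 (1.48 ± 0.12) and DCS1 (1.37 ± 0.09).

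**Figure D4:**
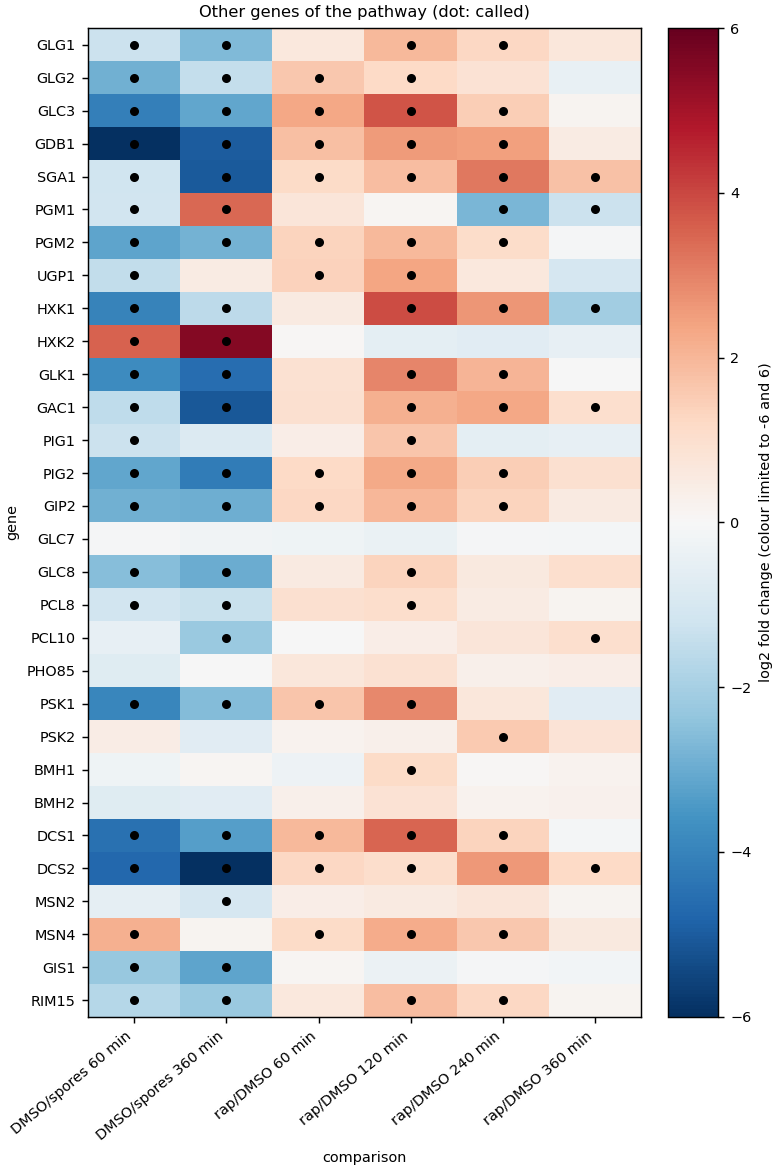
Log2 fold change (colour, red higher and blue lower, limited to -6 and 6) of the 30 other pathway genes tested (rows) in 6 comparisons (columns), the first 2 of DMSO over spores and the other 4 of rapamycin over DMSO. Dots mark genes called at an adjusted p under 0.05 and at least 2-fold. GDB1 was at -6.48 in DMSO over spores at 60 min, and 21 of the 30 genes carry a dot in red for rapamycin over DMSO at 120 min.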

How the data were processed

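Poly-A RNA from 45 samples of SK1 spores was sequenced by the authors as strand-specific single-end reads. According to their methods they trimmed reads with Trimmomatic 0.33, aligned them with hisat2 to an SK1 genome, and ran HTSeq (union mode, reverse-stranded) on an Ensembl R64 annotation. The authors deposited the resulting raw counts, not normalized, for 6723 identifiers, of which 6008 matched the RefSeq annotation of R64. The GEO record lists a human genome build for these yeast samples and its series text names another sequencer and aligner; the methods in the paper were followed here. Reads of one strain counted on gene models of another can be lost where the strains differ. Depth was 7736397 to 14522407 counts per library (median 10942773), and no replicate pair differed by less than the sampling noise (chi-square per degree of freedom from 5.39 to 185).

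Samples were grouped from their labels. A comparison used only its own 6 libraries (12 for an interaction), fitted with edgeR 4.0.16 in R 4.3.3, with TMM scaling, genes above 1 CPM in at least 3 libraries, glmQLFit and glmQLFTest, and Benjamini-Hochberg adjustment over all genes tested. A gene was called when its adjusted p was under 0.05 and its change 2-fold or more. CPM levels were scaled by TMM over all 45 libraries. Patterns were compared on log2(CPM + 1). Alternatives were library size alone, DESeq2 size factors, DESeq2 1.42.0, edgeR's exact test, no filter, the replicate letter as a block, 1 fit over 45 libraries, and leaving out each library. The scripts were tested on simulated data.

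The named genes are the 10 members, the fixed list of 31 pathway genes, the marker lists and the 2 closest genes by pattern for each member. Members and lists were chosen with earlier results of these data known. Promoter and coding sequences were read from the RefSeq R64 genome, and identity between paralogs was computed on coding sequences in place of the planned protein sequences. Same-lettered libraries deviated together in all 3 pairs (correlation over 0.1) in rapamycin versus DMSO at 0, 10, 30 and 120 min, DMSO versus spores at 0, 10 and 30 min, the DMSO steps up to 60 min and from 120 to 240 min, and the rapamycin steps from 60 to 240 min. The letters come from the sample titles.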

Additional observations from a re-analysis of the deposited data

Results flagged for a closer look

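The effect of rapamycin against DMSO differed between times, by a test of the interaction of treatment and time, in the genes below. With 3 libraries in each group, single outlying libraries were not tested for, but rapamycin 360 min library A stood apart across genes (chi-square per degree of freedom 185 against B and 167 against C, and 5.39 between B and C). Without it the interaction between 60 and 360 min was called for 8 members.

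Between 30 and 60 min the log2 effect of rapamycin increased by 2.44 in TPS1, 1.61 in TPS2, 2.20 in TSL1, 1.24 in TPS3, 1.18 in ATH1, 1.38 in GSY2 and 1.78 in GPH1. The value of GPH1 rests on rapamycin 60 min library C, without which it was 0.79.

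Between 60 and 360 min the log2 effect changed by -2.46 in TPS1, -1.11 in TPS2, -1.52 in TSL1, -1.77 in TPS3, -2.81 in GSY1, -1.79 in GSY2 and -4.01 in GPH1, and by 1.12 in NTH1. Of these 8 genes, NTH1 was the one whose advantage with rapamycin widened. TPS1, TPS3, GSY1, GSY2 and GPH1 went from values above 0 at 60 min to values below 0 at 360 min. Among them TPS3 (1.23 and -0.47) and GPH1 (1.65 and -2.29) passed the adjusted p at both times. GSY1 did not pass it at 60 min (0.31), and TPS1 (-0.05) and GSY2 (-0.24) did not at 360 min. The value of GPH1 was -3.02, and that of TPS2 -0.81, without rapamycin 60 min library C.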

How the results depend on the processing

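Of 122 gene results called over the comparisons, 109 kept their call under each of the alternatives run for them and 13 lost it in at least 1, while 0 reversed. Counts of members called stayed within 1.5 times of the reported count except in 3 steps. From 30 to 60 min with DMSO 3 members were called and 7 without scaling of library sizes, where the changes of all genes moved by -0.44. From 30 to 60 min with rapamycin 3 were called and between 1 and 4 when 1 library was left out. From 60 to 120 min with rapamycin 1 was called, 3 with the replicate block, 2 in 1 fit over all 45 libraries and between 0 and 4 when 1 library was left out. The pathway genes higher with rapamycin, alternatives chosen after seeing the data, numbered 12 at 60 min and between 7 and 14 when 1 library was left out, and 4 at 360 min, 2 with DESeq2 size factors or DESeq2's Wald test and between 2 and 6 when 1 library was left out. The block also ended the call of GPH1 at 60 min (1.41, adjusted p = 0.0629). Same-lettered libraries correlated there at 0.331 for A and 0.249 for C, but at 0.0287 for B. The block changed no other call of a member apart from TPS1 and GPH1 in the rapamycin step above.

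Values that changed sign were near 0. TPS1 at 360 min (-0.05) was 0.017 without scaling and between -0.12 and 0.045 when 1 library was left out. GSY1 at 10 min against spores (0.02) was -0.037 in 1 fit over all 45 libraries and between -0.057 and 0.090 when 1 library was left out. The interaction of NTH2 between 60 and 360 min (0.13) was -0.051 without scaling. The cause was not tested. The members with the fewest reads, GSY1, GSY2 and GPH1 at 120 min with DMSO, lay below 5 CPM, which widens their errors. The means of GPH1 at 60 and 240 min and of GSY1 at 240 min with DMSO were also below 5 CPM. So were those of GSY1 at 240 and 360 min with rapamycin.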
